A study of Mus musculus with 7 samples.

Results

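The genes described here are 37 targets of PPARalpha and enzymes of fatty acid oxidation, chosen by name, and all 37 were found among the 14851 genes of the deposited liver table. They were compared between 4 livers of Albumin-Cre; p53FL/FL mice (FL) and 3 livers of Albumin-Cre; p53WT/WT mice (WT). All 7 were male C57BL/6J mice of about 70 days, all carried Albumin-Cre, and all were sampled 8 h after an intraperitoneal dose of CCl4 (1 mL/kg, from a stock of 20% in corn oil), so the groups differ in whether the Trp53 alleles are floxed and there is no untreated liver among them. Albumin-Cre acts in hepatocytes, and which cells of an FL liver keep Trp53 was not tested. Some mice of either genotype carried a Rosa26 LSL-tdRFP reporter that the labels do not assign to single mice. The prefix of the source names differs between the genotypes, and what it marks cannot be told apart from genotype.

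PPARalpha is a nuclear receptor that binds DNA with a retinoid X receptor partner and is activated by fatty acids, most of all in the fasting liver. Its targets carry fatty acids into the hepatocyte, couple them to coenzyme A, pass them through the carnitine shuttle into mitochondria and shorten them there, while very long chains are shortened in peroxisomes. The acetyl-CoA that results can be turned into ketone bodies, which the liver exports to other tissues.

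Trp53, the floxed gene, had normalised counts of 131, 130, 217 and 110 in FL replicates 1 to 4 and of 876, 688 and 831 in WT replicates 1 to 3, with no overlap (log2 fold change -2.47, SE 0.23, limma adjusted p = 0.0447). Leaving out FL replicate 1, 2 or 4 or any WT liver in turn gave adjusted p-values of 0.0572 to 0.316 with log2 fold changes of -2.58 to -2.35, so the call was lost each time. The libraries held an estimated 11.9 to 19.5 M reads on genes. In the liver where it was largest for a member, counting error was between 0.778% and 11.9% of the value, the highest being that of Ppargc1a. WT replicate 2 and FL replicate 3 stood apart from the other livers on the first principal component, which held 66.7% of the variance. Their library labels are neighbours in an order that alternates the genotypes, and the part of that order was not tested. In both of these livers all 12 tested proliferation markers were above the other livers of the genotype. Their summed levels were 231 to 648 in FL and 267 to 2312 in WT. Macrophage markers were above in 8 of 10 for FL replicate 3 and in 10 of 10 for WT replicate 2, stellate cell markers summed to 11243 in WT replicate 2 against 2625 to 3923 in the other 6 livers, and 6 of 7 pericentral hepatocyte markers were below in each. The defining adipocyte genes Adipoq, Plin1, Lep and Retn are not listed in the table. In whole liver, fewer cells of a type and less RNA per cell cannot be told apart.

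No difference between the genotypes was called for any of the 37 genes. In the limma fit over 12545 tested genes, 0 of the 37 passed an adjusted p of 0.05 (0.0159% of all tested genes did), and 0 had an unadjusted p under 0.05, which 3.2% of all tested genes had. The livers of FL and WT overlapped in every one of the 37, while 4.76% of all tested genes had groups that did not overlap. The log2 fold changes ran from -1.02 to 0.30 with a median of -0.01, beside 0.01 over all tested genes, and 17 of 37 were above 0, beside 51.6% of all tested genes and 71.8% of the genes with a mean of at least 1000, to which 27 of the 37 belong. Those signs depended on the scaling, with 13 above 0 after quantile normalisation (52.5% of all tested genes on that scale) and 7 after scaling the livers to equal sums (25.4%). A missed threshold does not show equality, and the intervals give the differences that were not excluded. The 95% interval lay within a 2-fold change either way for 30 of the 37 genes (77.7% of all tested genes) and within a 1.5-fold change for 24 (50.1%).

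**Figure D1:**
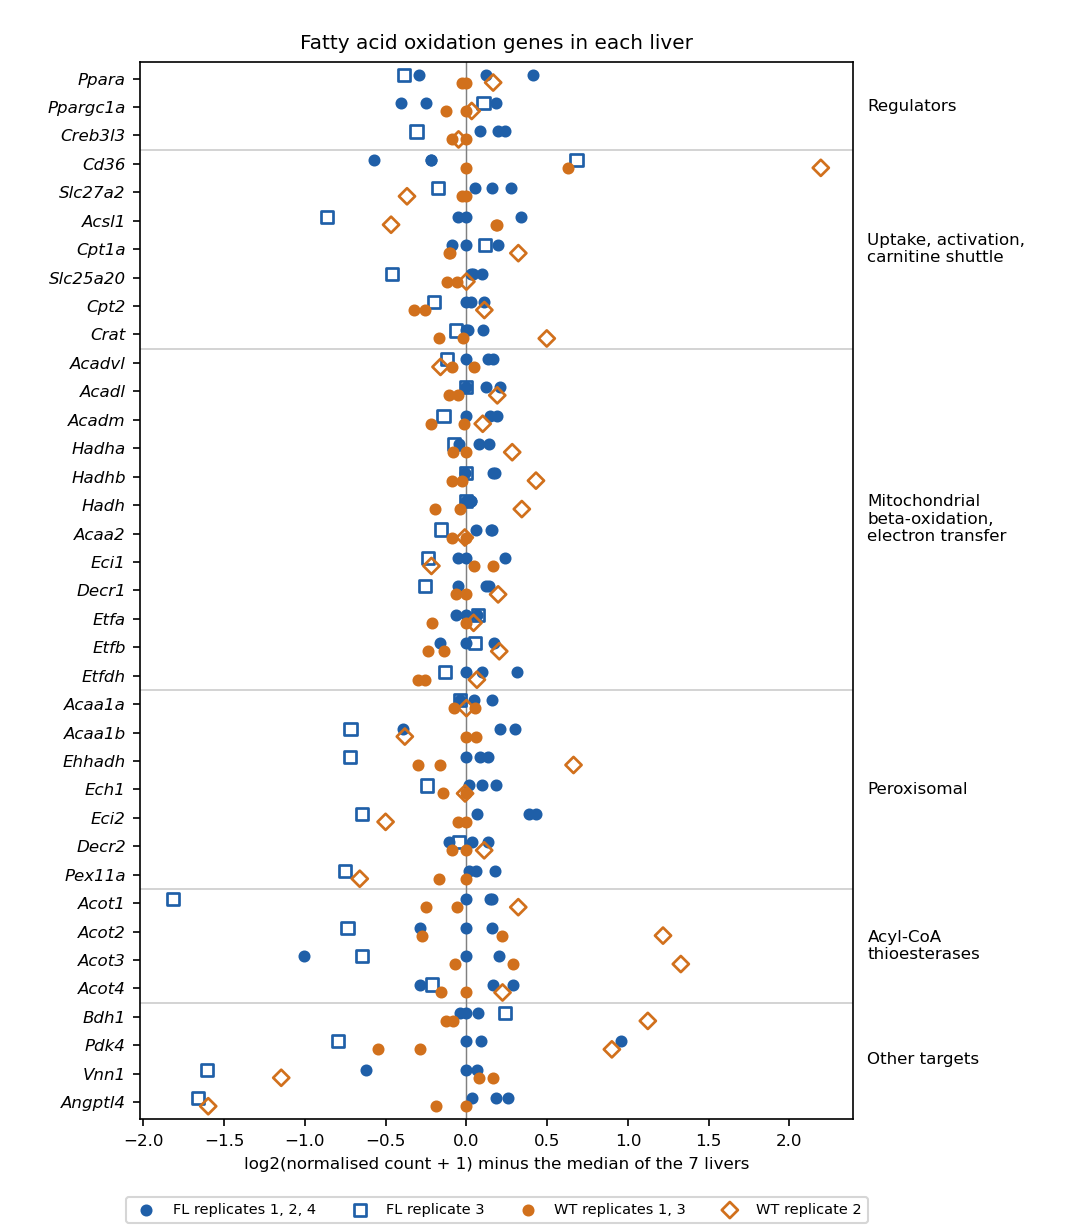
Each point is 1 liver, plotted as log2(normalised count + 1) minus the median of the 7 livers for that gene, with FL in blue, WT in orange, and open symbols for FL replicate 3 (squares) and WT replicate 2 (diamonds). Most points lie close to 0, and the 6 widest spreads belong to Cd36, Acot3, Acot1, Acot2, Angptl4 and Vnn1, in each of which an open symbol is the farthest point from 0.

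**Figure D2:**
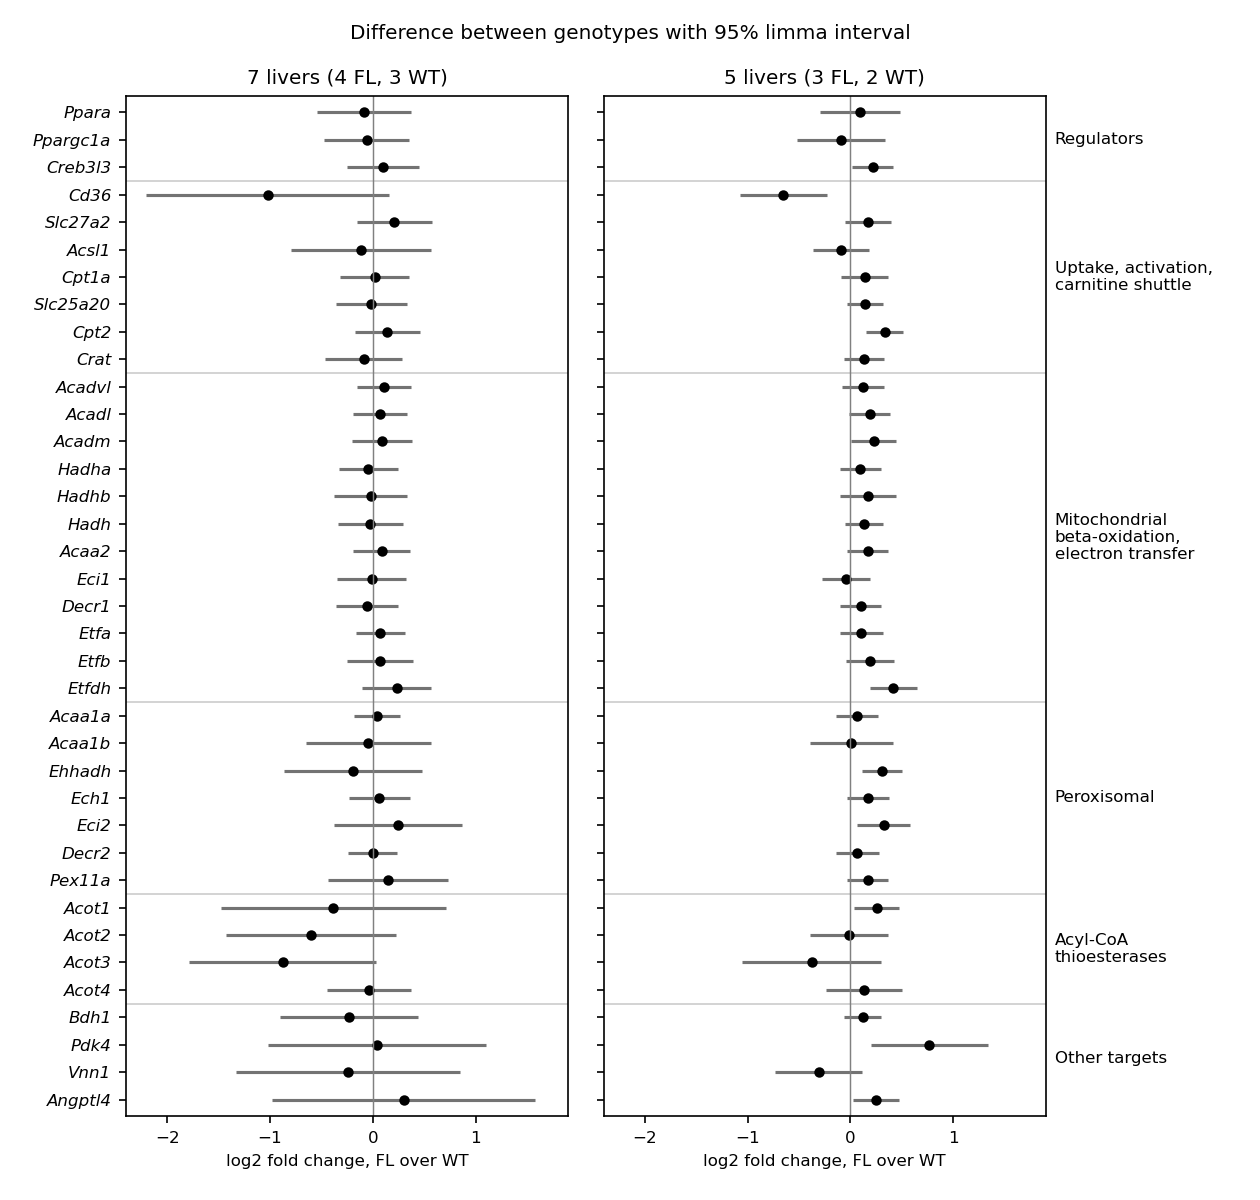
Points are limma log2 fold changes of FL over WT and lines are 95% intervals, for all 7 livers on the left and for the 5 livers without FL replicate 3 and WT replicate 2 on the right. On the left every interval crosses 0, and on the right 30 of 37 points lie above 0.

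The members spanned a wide range of levels. On the scale of normalised count per kb of exon, the mean level over the 7 livers was highest for Acaa2, the last enzyme of the mitochondrial cycle (9570, range 8460 to 10500), followed by the fatty acid transporter Slc27a2 (6710, 5200 to 8100). The ranges of these 2 genes did not overlap. Slc27a2 and the next gene, the peroxisomal thiolase Acaa1b (6390, 4150 to 8390), did not differ beyond their ranges. The level of Acaa1b is uncertain, because 42.6% of its stretches of 36 bases, the length of 1 read, also occur in Acaa1a. Ppargc1a was the lowest of the 37 (19.4, 15.2 to 22.9), below Acot4 (54.4, 44.0 to 65.6) without overlap. The receptor itself, Ppara, lay at 210 per kb (158 to 275), far under most of its targets. Together the 37 genes took 0.996% to 1.074% of the normalised counts in FL replicates 1, 2 and 4, 0.804% in FL replicate 3, and 0.979% to 1.097% in the WT livers.

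**Figure D3:**
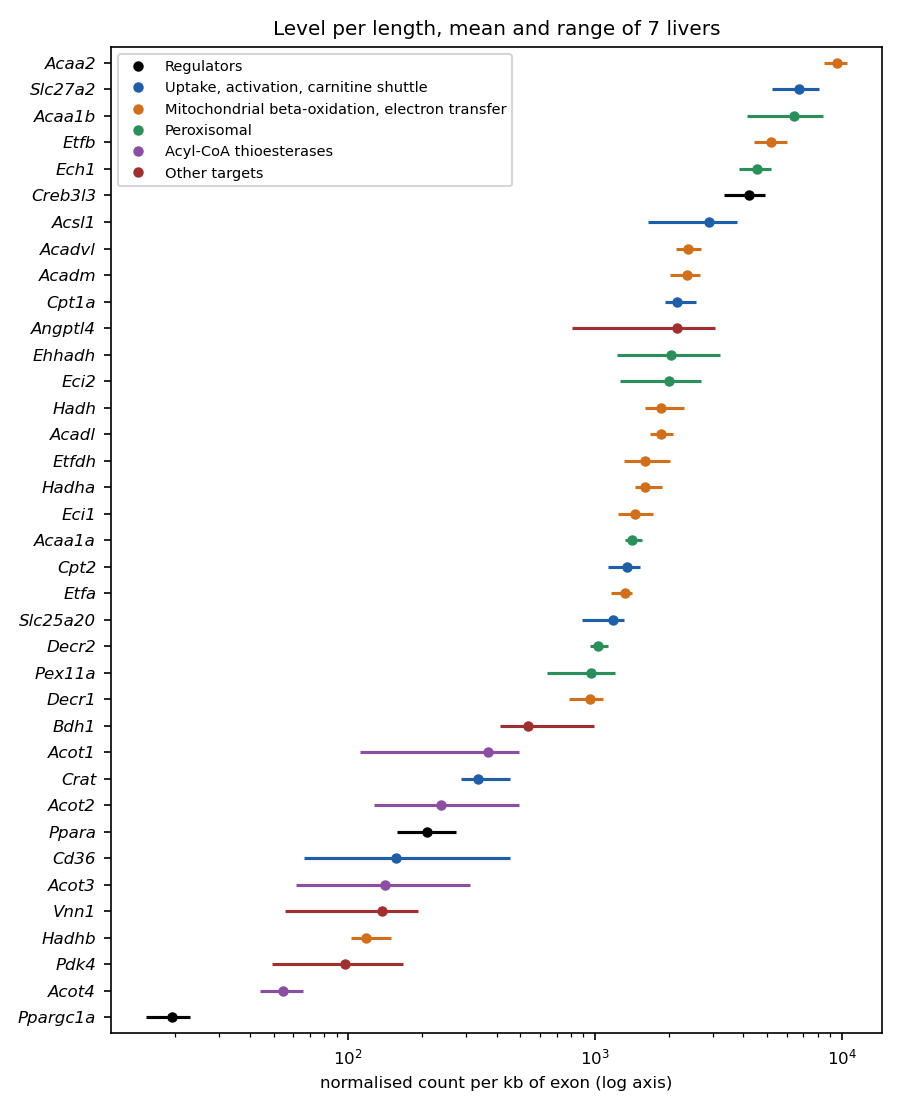
Points are mean levels of the 7 livers in normalised count per kb of exon on a log axis, lines run from the lowest to the highest liver, and colours give the role. Levels run from 19.4 for Ppargc1a to 9570 for Acaa2, and most neighbours in the order have overlapping ranges.

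Of the regulators, Ppara had normalised counts of 796, 972, 560 and 596 in FL replicates 1 to 4 and of 717, 820 and 731 in WT replicates 1 to 3. The FL livers spread on both sides of the WT livers, FL replicate 3 being the lowest and FL replicate 2 the highest of all 7. The log2 fold change was -0.08 (SE 0.20, 95% interval -0.54 to 0.38, exact permutation p = 0.771, two-sided). Ppargc1a, the coactivator PGC-1alpha, which raises the activity of PPARalpha on oxidation genes, had 109, 98, 140 and 148 in FL and 119, 133 and 130 in WT. Its WT livers lay inside the FL range. The log2 fold change was -0.06 (SE 0.18, 95% interval -0.47 to 0.35, exact permutation p = 0.714). Creb3l3, which encodes the liver transcription factor CREBH that works with PPARalpha in fasting, had 10102, 10935, 7696 and 11260 in FL and 8949, 9220 and 9537 in WT. FL replicate 3 was the lowest liver and the other 3 FL livers were above all WT livers. The log2 fold change over the 7 livers was 0.10 (SE 0.15, 95% interval -0.25 to 0.45, exact permutation p = 0.543). The smallest p that the 35 splits of these livers can give is 0.0286.

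Of the 7 genes of fatty acid uptake, activation and the carnitine shuttle, 3 had a log2 fold change above 0 and 4 below. Cd36, a surface receptor that takes up fatty acids, had the widest spread of all 37, with 300, 301, 562 and 235 in FL and 350, 1605 and 542 in WT. WT replicate 2 was far above the next livers and FL replicate 3 was the highest FL liver, so the groups overlapped. The log2 fold change, given after the values were seen because it was the most negative, was -1.02 (SE 0.51, 95% interval -2.20 to 0.16, exact permutation p = 0.171), and without WT replicate 2 it was -0.40. Cd36 is also expressed by macrophages and endothelial cells, whose markers were above the other livers of the genotype for 8 of 10 and 5 of 7 genes in FL replicate 3 and for 10 of 10 and 6 of 7 in WT replicate 2, and their part in the Cd36 values was not tested. Slc27a2, a transporter that also activates very long chain fatty acids, had 21805, 23646, 17320 and 20302 in FL and 19565, 15162 and 19182 in WT. Acsl1, the main long chain acyl-CoA synthetase of the liver, had 15745, 12442, 6838 and 11976 in FL and 14147, 9004 and 14168 in WT. For both of these genes the 2 livers that stood apart were the lowest of their genotype, and FL replicate 3 held 51.1% of the mean of the other FL livers for Acsl1. Cpt1a, the rate-limiting enzyme of mitochondrial entry and the classical PPARalpha target, had 8920, 10222, 9655 and 8371 in FL and 8290, 11146 and 8310 in WT. It kept within a 1.34-fold range over the 7 livers. Slc25a20, the carrier that exchanges acylcarnitine across the inner membrane, had 2247, 2220, 1586 and 2332 in FL and 2007, 2180 and 2098 in WT, with FL replicate 3 alone at the bottom. Cpt2, which returns the acyl group to coenzyme A inside the mitochondrion, and Crat, which does so for acetyl groups, had 7-liver ranges of 1.35-fold and 1.59-fold, and WT replicate 2 was the highest liver for each.

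The 12 genes of mitochondrial beta-oxidation and electron transfer had narrow intervals, all 12 within a 1.5-fold change. Of these, 7 had a log2 fold change above 0 and the median was 0.07. The acyl-CoA dehydrogenases, which take the first oxidation step on chains of different length, showed small spreads. Acadvl, for very long chains, had 5183, 5679, 4763 and 5810 in FL and 4870, 4637 and 5344 in WT. Acadm, for medium chains, had 4778, 5283, 4330 and 5446 in FL and 4112, 5124 and 4735 in WT. Acadl, for long chains, ran from 3195 to 3968 over the 7 livers. For these 3 genes FL replicate 4 was the highest liver, and the groups overlapped throughout. The trifunctional protein, which carries out the next steps, is made from Hadha and Hadhb. Hadha had 5992, 6815, 5878 and 6530 in FL and 5838, 7540 and 6195 in WT, and Hadhb had 228, 259, 229 and 257 in FL and 215, 309 and 225 in WT. WT replicate 2 was the highest and WT replicate 1 the lowest liver for both subunits, and Hadha stood between 24.4 and 27.5 times above Hadhb in every liver, a level of 118 per kb for Hadhb against 1590 for Hadha. Of the 36-base stretches of the Hadhb transcripts, as long as 1 read, 60.8% also occur in another annotated gene (Gm13910 holds most of them), so the level of Hadhb in this table is uncertain. The same holds for Etfb, of which 60.8% is shared with Gm45233.

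Hadh, the short chain hydroxyacyl-CoA dehydrogenase, had 3318, 3313, 3249 and 3243 in FL, which was the tightest FL group beside its mean (3281 ± 40.3, SD, n = 4), and 2842, 4121 and 3163 in WT. The FL livers thus lay inside the WT range. Acaa2, the thiolase that releases acetyl-CoA, ran from 12818 to 15968 over the 7 livers. Eci1 and Decr1, which bring unsaturated chains into the cycle, ran from 1603 to 2234 and from 2335 to 3192. FL replicate 3 was the lowest of the 7 livers for each of these 3 genes. The electron transfer flavoprotein passes electrons from the dehydrogenases to the respiratory chain. Its subunit genes Etfa and Etfb ran from 1608 to 1959 and from 3933 to 5339, and its oxidoreductase Etfdh had 3908, 4180, 3559 and 4865 in FL and 3276, 4088 and 3173 in WT. Etfdh was the member of this group with the highest log2 fold change, at 0.23 (FL 4128 ± 553, n = 4, against WT 3512 ± 501, n = 3, SD), and it too overlapped.

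Of the 7 peroxisomal genes, Ehhadh, Eci2 and Acaa1b spread over 2.02-fold to 2.61-fold and Pex11a from 1429 to 2717, against 1.22-fold to 1.53-fold for the mitochondrial genes, while Ech1, Decr2 and Acaa1a kept within 1.35-fold. FL replicate 3 was below the other FL livers in 6 of the 7. Ehhadh, the peroxisomal bifunctional enzyme and a strongly induced PPARalpha target, had 6037, 6394, 3656 and 6618 in FL and 4894, 9560 and 5381 in WT. FL replicate 3 was the lowest and WT replicate 2 the highest of the 7 livers. Eci2, an enoyl-CoA isomerase, had 3643, 4555, 2220 and 4694 in FL and 3351, 2459 and 3479 in WT, and Pex11a, which promotes the division of peroxisomes, had 2717, 2505, 1429 and 2434 in FL and 2143, 1522 and 2406 in WT. In these 2 genes both livers that stood apart were low. Ech1, a dienoyl-CoA isomerase, and Decr2, a peroxisomal reductase of unsaturated chains, ran from 4864 to 6553 and from 2192 to 2593.

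The thiolase of peroxisomes exists in mice as a pair of neighbouring copies, and these differed in spread. Acaa1a had 2387, 2737, 2385 and 2539 in FL and 2329, 2456 and 2548 in WT, and Acaa1b had 13290, 14169, 7003 and 8771 in FL and 11520, 8844 and 11997 in WT. Acaa1a stayed within 1.18-fold while Acaa1b spread over 2.02-fold, with FL replicates 3 and 4 and WT replicate 2 low. The ratio of Acaa1b to Acaa1a ran from 2.94 in FL replicate 3 to 5.57 in FL replicate 1. Both genes lie on chromosome 9 of GRCm38, Acaa1a at chr9:119339676-119350299 on the plus strand and Acaa1b at chr9:119148023-119157093 on the minus strand. Their coding sequences are 96.5% identical over 1275 bases, with a longest identical run of 327 bases. Of their 36-base stretches, 32.6% of Acaa1a and 42.6% of Acaa1b occur in the other copy, so their levels and ratio are uncertain. The 2 stretches here are coding bases 460 to 549, the window with the most differences (13), and capitals mark the differing bases. They are shown as the place where the copies are most easily told apart. The genomic spans, chr9:119346483-119347733 and chr9:119150901-119151901, include an intron that is not printed.
Acaa1a: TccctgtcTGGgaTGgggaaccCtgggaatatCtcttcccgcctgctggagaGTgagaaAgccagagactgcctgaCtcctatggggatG
Acaa1b: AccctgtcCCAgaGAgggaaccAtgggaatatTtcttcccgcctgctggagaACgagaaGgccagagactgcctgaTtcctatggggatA

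The 4 acyl-CoA thioesterases cut acyl-CoA into a free fatty acid and coenzyme A, Acot1 in the cytosol, Acot2 in mitochondria, and Acot3 and Acot4 in peroxisomes. All 4 had a log2 fold change below 0, with a median of -0.49, and none of the 4 passed the test. Acot1 had 898, 992, 254 and 1004 in FL and 756, 1122 and 863 in WT. FL replicate 3 was at 26.3% of the mean of the other FL livers, which were within the WT range. Acot1 and Slc25a20 were the 2 members in which 1 FL liver lay apart from the rest by Dixon's ratio, as 7.2% of all tested genes had. Acot2 had 522, 467, 280 and 383 in FL and 386, 1087 and 544 in WT, and Acot3 had 491, 427, 272 and 212 in FL and 406, 1073 and 521 in WT. In both, WT replicate 2 was far above every other liver (234% and 231% of the mean of the other WT livers), and the rest of the groups overlapped. Acot4 had 407, 373, 287 and 273 in FL and 299, 389 and 333 in WT, with neither group above the other. Acot3 had the lowest unadjusted p of the 37 (0.0574 by limma, adjusted p = 0.999), and its log2 fold change, given after the values were seen, was -0.88 (SE 0.39, 95% interval -1.79 to 0.04, exact permutation p = 0.143). For Acot2, likewise chosen after its values were seen, it was -0.60 (SE 0.36, 95% interval -1.43 to 0.22, exact permutation p = 0.2). Without WT replicate 2 these values were -0.47 for Acot3 and -0.19 for Acot2.

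These genes form a cluster on chromosome 12, with Acot2 at chr12:83987861-83993873 and Acot1 at chr12:84009490-84018371, both on the plus strand. Of their 36-base stretches, 37.05% of Acot1 and 34.03% of Acot2 occur in another gene, and their coding sequences are 95.2% identical over 1239 aligned bases. The ratio of Acot1 to Acot2 ran from 0.907 in FL replicate 3 and 1.03 in WT replicate 2 to 2.62 in FL replicate 4. The measured levels thus did not move together, but with so much shared sequence these levels and their ratio are uncertain. The printed stretches are the aligned window with the most differences (14, in capitals), at chr12:84016916-84017005 for Acot1 and chr12:83992638-83992727 for Acot2, plus strand.
Acot1: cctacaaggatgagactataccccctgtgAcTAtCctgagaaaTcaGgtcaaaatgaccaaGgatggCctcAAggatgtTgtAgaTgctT
Acot2: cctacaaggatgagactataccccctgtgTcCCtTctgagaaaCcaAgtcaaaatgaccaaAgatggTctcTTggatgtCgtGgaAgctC

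Of the remaining targets, Angptl4, a secreted inhibitor of lipoprotein lipase, had 10111, 9643, 2679 and 8693 in FL and 8476, 2798 and 7452 in WT. FL replicate 3 and WT replicate 2 lay at 28.3% and 35.1% of their genotype's other livers and the remaining 5 livers lay together. Vnn1, the pantetheinase that recycles a precursor of coenzyme A, had 413, 432, 135 and 268 in FL and 463, 186 and 436 in WT. The same livers were lowest in their genotype. Pdk4, the kinase that shuts off pyruvate dehydrogenase and spares glucose, had 582, 319, 172 and 299 in FL and 245, 559 and 204 in WT. Here FL replicate 3 was the lowest and WT replicate 2 the highest liver of its genotype. Bdh1, the enzyme that makes the ketone body beta-hydroxybutyrate, had 1612, 1741, 1957 and 1656 in FL and 1561, 3608 and 1515 in WT. WT replicate 2 had 235% of the mean of the other WT livers, and the other 6 livers were within 1515 to 1957.

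**Figure D4:**
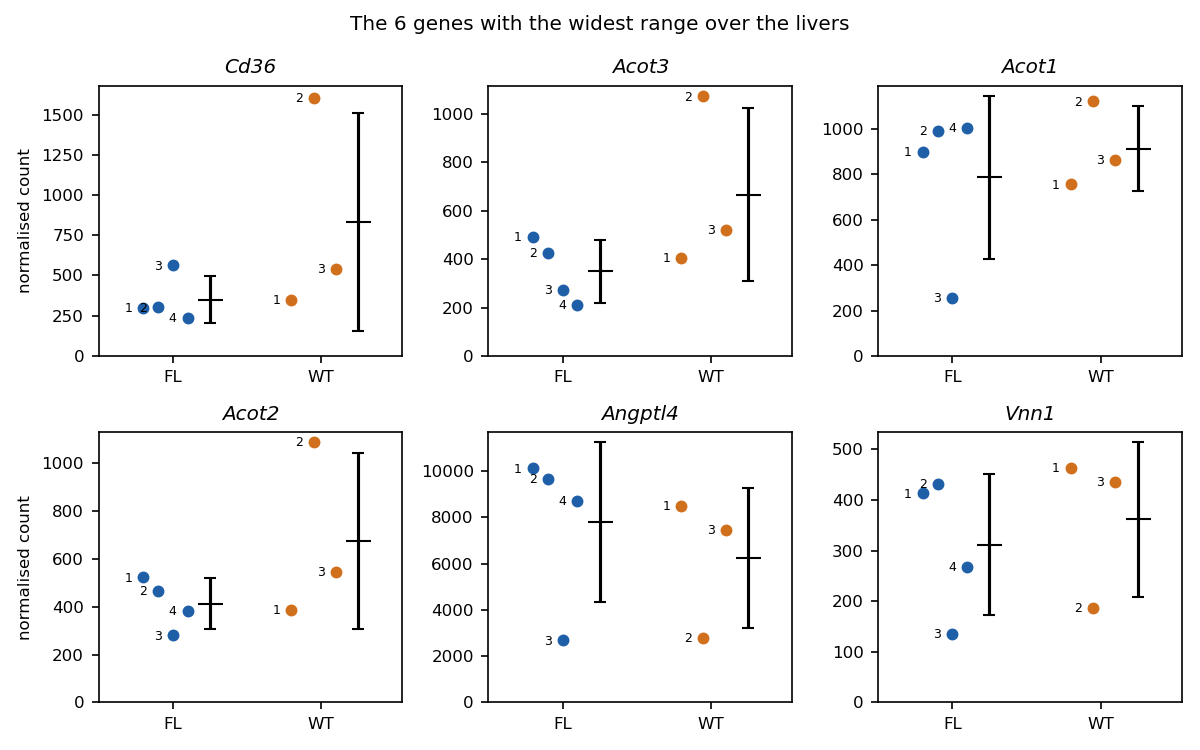
Points are normalised counts per liver, numbered by replicate, for the 6 members with the widest range on the log2 scale, and bars are the mean ± SD beside each group (n = 4 FL, n = 3 WT). In Cd36, Acot3 and Acot2 WT replicate 2 is the highest liver, in Acot1 FL replicate 3 is far below the others, and in Angptl4 and Vnn1 both are low.

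The 2 livers that stood apart held many of the extreme values of the 37 genes, and also of all tested genes. FL replicate 3 was below the other 3 FL livers in 26 of 37 genes (34.5% of all tested genes) and above them in 3 (35%). WT replicate 2 was above the other WT livers in 24 (45.5%) and below in 9 (44.3%). Across all tested genes these livers deviated mostly in the same direction, with 28.8% below in both and 28.6% above in both. Among the 37, 9 were below in both, 3 (Cd36, Bdh1 and Etfa) were above in both, and 13 were below in FL replicate 3 but above in WT replicate 2, which 3.22% of all tested genes were. The reverse occurred in 0 of 37 (3.33% of all tested genes). The 13 genes included Ehhadh, Pdk4, Acot1, Acot2, Ppara and Hadha. Of the 37 genes 17 had the lowest of the 7 values in FL replicate 3 (8.78% of all tested genes) and 1 the highest (11.7%). In WT replicate 2, 14 had the highest value (31.6%) and 2 the lowest (34%). WT replicate 1, which did not stand apart, was the lowest liver in 11 (10.9%). These counts describe single livers and are not 37 separate observations. The proliferation, macrophage and pericentral markers given above deviated in the same direction in both livers that stood apart, as did periportal hepatocyte markers, above in 8 of 8 and 7 of 8. Bile duct markers were below in 5 of 5 for FL replicate 3 and in 1 of 5 for WT replicate 2. The part of these cell types in the values was not tested.

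**Figure D5:**
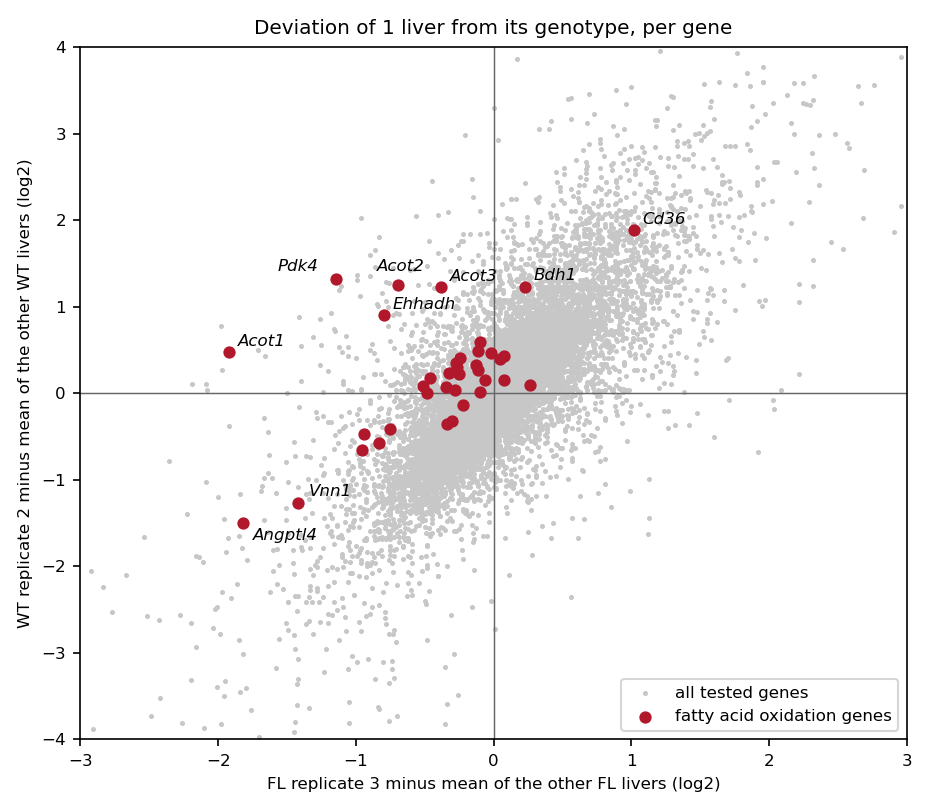
Each point is 1 gene, with the deviation of FL replicate 3 from the mean of the other FL livers across and the same for WT replicate 2 within its genotype upwards, both in log2, all tested genes in grey and the 37 members in red (64 genes lie outside the axes). The grey cloud runs from lower left to upper right, while many red points, among them Acot1, Pdk4 and Ehhadh, lie to the upper left, low in FL replicate 3 and high in WT replicate 2.

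Without these 2 livers most log2 fold changes were above 0, again with no call. Among the 37, FL replicate 3 was mostly low in its genotype and WT replicate 2 mostly high. Leaving them out therefore tends to raise these fold changes by construction, and the counts below are not separate support. WT replicate 1, which stayed in, was the lowest of the 7 livers in 11 of the 37. With 3 FL and 2 WT livers, 0 of the 37 genes passed an adjusted p of 0.05 (0.0478% of all tested genes did) and 10 had an unadjusted p under 0.05 (9.69%). The log2 fold change was above 0 in 30 of 37 (46.8% of all tested genes), with a median of 0.13 beside -0.01 over all tested genes. In 20 genes every FL liver was above both WT livers (12.7% of all tested genes and 19.4% of those with a mean of at least 1000), and in 2, Cd36 and Vnn1, every FL liver was below (14.6%). The count of 20 became 16 after quantile normalisation, where 14.4% of all tested genes had this order, and 9 after scaling to equal sums (6.46%). The lowest unadjusted p was that of Cpt2, with 3460 ± 136 (SD, n = 3) in FL and 2740 ± 97.6 (n = 2) in WT, a log2 fold change of 0.34 (limma SE 0.08, adjusted p = 0.244). Etfdh followed with 4318 ± 493 against 3224 ± 72.8 (log2 fold change 0.41, limma SE 0.10, limma adjusted p = 0.251). Ehhadh had 6350 ± 293 against 5138 ± 344 (log2 fold change 0.31, limma SE 0.09, limma adjusted p = 0.307). The mitochondrial group had 11 of 12 above 0, the peroxisomal group 7 of 7. In the same 5 livers 23 of 25 oxidative phosphorylation genes, 14 of 15 peroxisome assembly genes and 7 of 7 hepatocyte markers were above 0. Over all 7 livers these lists already had 22, 15 and 7 genes above 0, beside 17 of the 37 members. The lists were counted only with the authors' size factors. On that scale 71.8% of genes with a mean of at least 1000 were above 0 over the 7 livers. That share was 54% after quantile normalisation and 35.5% after scaling to equal sums.

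Other genes in or near the pathway gave the same count of calls. A further list held 69 PPARalpha targets, fatty acid oxidation genes, and related receptors, regulators and transporters, of which 67 could be tested. In either direction 0 passed (0.0159% of all tested genes did). The log2 fold change was above 0 in 44 and below in 23 (median 0.08), beside 51.6% of all tested genes above 0. By limma 4 had an unadjusted p under 0.05 (3.2% of all tested genes), and 2 had groups without overlap (4.76%). Fgf21, a hormone that the fasting liver secretes under PPARalpha, had 815, 897, 544 and 586 in FL and 304, 632 and 229 in WT, a log2 fold change of 0.97 (SE 0.34, unadjusted p = 0.0226 and adjusted p = 0.999 by limma). WT replicate 2 was inside the FL range and the other WT livers were below it. Without both livers that stood apart, Fgf21 had an adjusted p of 0.0381 with a log2 fold change of 1.51. The other 3 with an unadjusted p under 0.05 were Ephx2, the soluble epoxide hydrolase (0.42, SE 0.17), Mgll, which releases fatty acid from monoacylglycerol (0.45, SE 0.19), and Abcd4 (0.39, SE 0.16). Abcd4 is a transporter of the ABC family, and a part in fatty acid oxidation was not tested. Abcd4 alone of these had no overlap, with 259, 233, 221 and 336 in FL and 204, 200 and 187 in WT. The other gene without overlap was Scp2, with 24961, 26158, 25580 and 26450 in FL and 24417, 20676 and 24525 in WT (unadjusted p = 0.231 by limma).

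PPARalpha with its partner binds a direct repeat of AGGTCA with 1 base of any kind between, and both strands were searched for these letters. RefSeq promoter windows of GRCm38 (250 bases before to 50 after the start) were available for 32 of the 37 genes. None of the 32 held the exact letters, as 0.0481% of all genes with a window did, and none held them with 1 mismatch (0.644%). With up to 2 mismatches, an allowance chosen after the search, 5 of 32 held them (15.6%, beside 4.4% of all genes), namely Creb3l3, Cd36, Etfa, Slc25a20 and Acot4. The windows of 3 of these are shown with the matched letters in capitals, read along the gene, at chr10:81092764-81092824 for Creb3l3, chr5:17835923-17835983 for Cd36 and chr9:55512284-55512344 for Etfa, all genes of the minus strand.
Creb3l3: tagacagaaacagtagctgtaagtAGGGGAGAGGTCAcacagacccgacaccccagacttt
Cd36: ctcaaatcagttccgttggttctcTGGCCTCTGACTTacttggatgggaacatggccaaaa
Etfa: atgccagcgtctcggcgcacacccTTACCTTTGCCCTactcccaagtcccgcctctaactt
Cd36 and Etfa match on the opposite strand of the gene. The 3 genes differed in pattern, Creb3l3 being lowest in FL replicate 3, Cd36 highest in WT replicate 2 and Etfa within a 1.22-fold range. A match of these letters is a description of the sequence and not a binding site.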

How the data were processed

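The deposited table holds scores: normalised read counts that the authors rounded to whole numbers. Per the paper and the labels, the authors prepared stranded libraries of polyadenylated RNA, sequenced them from both ends, aligned the reads with TopHat2 2.0.13 and Bowtie2 2.2.6.0 to a mouse genome written as GRCh38.75, counted them with HTSeq and scaled them with DESeq2 in R 3.4.2. Rounding hides the reads, so no count test was run. Of 14988 rows, 14851 genes remained after 120 repeated identifiers were kept once. Symbols, positions and exon lengths (basic protein-coding transcripts) came from GENCODE vM21 of GRCm38, and promoter windows came from RefSeq of GRCm38.

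Genes with a mean of at least 10 were tested with limma 3.58.1 in R 4.3.3 (lmFit, eBayes with a trend) on log2(normalised count + 1), so fold changes of low genes are understated, with Benjamini-Hochberg adjustment and a threshold of 0.05. Single genes were tested with exact two-sided permutations over the 35 splits. Depth was estimated from the spacing of low values and tested on simulated data, as was limma. Intervals from depth cover counting error only. The study's experimental unit was the mouse. No source pairs single mice, so numbers were not used as pairs. Deviations of same-numbered livers correlated at 0.438 for replicate 1, -0.483 for replicate 2 and -0.661 for replicate 3. These values cannot show whether mice were paired, because the 2 livers that stood apart carry different numbers.

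The members, gene lists and tests were chosen with earlier results of these data known. Fold changes were given for members with an unadjusted p under 0.05 or without overlap, for the 3 regulators and for Trp53. They were also given for up to 6 genes of the further list with an unadjusted p under 0.05. The 6 members with the widest range were described by liver. The fold changes of Cd36, Acot2 and Acot3, those given for 5 livers, the paralog windows and the motif mismatches were chosen after values were seen. Alternatives were pseudocounts of 0.5 and 5, other filters, quantile and upper quartile scaling, limma without a trend, with robust hyperparameters or array weights, a replicate block, and leaving out livers. Scaling to equal sums was added later. Tables and figures were made with Python 3.11.15, pandas 2.3.3, NumPy 2.4.6 and Matplotlib 3.10.9.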

Additional observations from a re-analysis of the deposited data

Results flagged for a closer look

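Acot1 in FL replicate 3 had a normalised count of 254, far from the 898 to 1004 of the other FL livers. Slc25a20 in FL replicate 3 had 1586, against 2220 to 2332 in the other FL livers. The liver was flagged because its gap to the nearest liver of its genotype, as a share of the genotype's range, exceeded Dixon's 95% critical value for 4 samples. Of 43 genes and lists examined 2 were flagged, where the nominal rate is about 1 in 20, or 2.1. The same rule held for 7.2% of all tested genes. Both flags fell in FL replicate 3, so they are not separate observations. The cause was not tested.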

How the results depend on the processing

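The count of members called stayed at 0 under all 19 alternatives. The median log2 fold change of the members (-0.012) ran from -0.030 to 0.067 when 1 liver was left out and was 0.134 without both WT replicate 2 and FL replicate 3. Of all tested genes, 2 were called, and 5 were with array weights, 6 without both livers and 1 with quantile normalisation. 0 genes were called by limma with a minimum of 10 in every liver (356 at an unadjusted p under 0.05), without a trend (465), with a mean of at least 50 (316), with a pseudocount of 5 (404) and with the replicate block (110), and leaving out 1 liver gave 0 to 5. With the replicate block the log2 fold change of Ppara was 0.004, the same as without FL replicate 4. That liver has no WT liver of the same number, so the block takes it out of the estimate. Ppara changed sign with array weights (0.126) and without both livers (0.094), and ran from -0.231 to 0.034 when 1 liver was left out. Ppargc1a changed sign with quantile normalisation (0.013) and ran from -0.152 to 0.045 when 1 liver was left out, and Creb3l3 changed sign with quantile normalisation (-0.016). Of the 5 livers, 9 members had every FL liver above the WT livers after scaling to equal sums, against 20 with the size factors. Fgf21 passed the threshold with array weights (adjusted p = 0.0279 by limma) as well as without both livers, and the call of Trp53 was lost in 11 of 19 alternatives. The causes were not tested. Depth limits the members little, except Ppargc1a. With 4 and 3 livers, of which 1 each stood apart, intervals of the variable genes were wide (SE up to 0.553).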
